A study of Mus musculus with 16 samples.

Results

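Pyruvate dehydrogenase joins glycolysis to the tricarboxylic acid (TCA) cycle, and transcripts of 9 mouse genes for these mitochondrial enzymes were measured in the cerebellum of wild-type (WT) and Atm-/- mice with and without nicotinamide riboside (NR), a precursor of NAD+. The 9 genes are Pdha1, Cs, Idh2, Idh3a, Idh3g, Ogdh, Sucla2, Fh1 and Mdh2. They were chosen by name, and their probes were found through the transcript accession that the array file gives for each probe. The array held 13 such probes, 2 each for Cs, Idh2, Idh3g and Ogdh and 1 each for the other 5 genes, and they are 9 of the 16737 named genes and 13 of the 37253 probes that passed a filter on dim signals. None of the 13 was lost to that filter, since each was well above background on all 16 arrays. Where a gene has 2 probes, the brighter one stands for it and the dimmer one is named as such.

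The arrays hold 4 groups of 4 mice each. Wild-type mice drank water alone (WT veh) or water with NR (WT NR), and so did mice homozygous for the Atm mutation (Atm-/- veh, Atm-/- NR). All came from the strain B6;129S4-Atmtm1Bal/J, and the WT mice were littermates of the Atm-/- mice, which carry the mutation in all tissues. The drinking water of the NR groups held 3.5 mg/ml (12 mM) for 2 months, starting at 6 weeks of age, and mice were 3.5 months old. Nothing in the labels says which mice shared a litter or cage. RNA came from pieces of cerebellar cortex, so each value is an average over all cells of the tissue, and fewer cells of a type cannot be told apart from less RNA per cell.

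In the cycle, acetyl-CoA made from pyruvate is joined to oxaloacetate, and the resulting citrate is oxidised step by step back to oxaloacetate. Pyruvate dehydrogenase, the NAD+-dependent isocitrate dehydrogenase, 2-oxoglutarate dehydrogenase and malate dehydrogenase each pass electrons to NAD+, so the cycle depends on the NAD+ pool that NR feeds. Neurons draw most of their ATP from this route.

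Several facts of the whole series bear on what follows. The Atm label was checked first: the dimmer Atm probe was lower in Atm-/- veh than in WT veh by a log2 difference of -0.87 (adjusted p = 3.2e-04 in limma) and lower in Atm-/- NR than in WT NR by -0.76 (adjusted p = 0.00135). Its brighter probe differed by -0.35 between the veh groups (adjusted p = 0.221). Between the NR groups the brighter probe differed by -0.12, with overlapping arrays, and did not pass. Each genotype had a slide to itself, and on both slides the veh mice were in row 1 and the NR mice in row 2. Effects of genotype cannot be told apart from those of the slide, nor effects of NR from those of the row. The labels give all mice as male, but 4 arrays showed no Y-linked signal: Atm-/- veh 3, Atm-/- NR 4 and, in the WT NR group, replicates 1 and 4. WT veh 4 stood apart through markers of choroid plexus (3.74 above the mean of all arrays on the log2 scale, with the next WT veh array at 0.79) and of neurons outside the cerebellum (6.31, next 0.24). Atm-/- veh 3 stood apart through red blood cell genes (2.33, next -0.02). The values of the 9 genes that rest on these arrays are given with and without them. Markers of granule cells, which make up most of this tissue, had group means between -0.04 and 0.03 over 5 of 5 genes, though single markers went opposite ways, as given beside the results.

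NR in Atm-/- mice gave the clearest change. Of the 9 genes, Sucla2, Fh1 and Mdh2 rose in Atm-/- NR over Atm-/- veh, 0 fell, and 6 did not pass the test (limma, Benjamini-Hochberg adjusted p under 0.05 over 37253 probes). The background was high in this comparison: 9.04% of all probes passed, 4.56% as higher and 4.48% as lower. Over the brightest probes of all named genes, 6.67% were higher and 4.8% lower. The 3 genes encode enzymes of the later part of the cycle, from succinyl-CoA to oxaloacetate, where succinate dehydrogenase acts between Sucla2 and Fh1. The median change over the 9 genes was 0.03, against 0.04 over all 16737 genes. Leaving out 1 array at a time gave medians from 0.03 to 0.13, the highest without Atm-/- veh 3. The median was 0.10 on the 12 arrays with Y-linked signal and 0.09 with arrays scaled to their 75th percentile. For these alternatives the reference at hand is all probes, a wider set than the 16737 named genes, and the 2 sets differ in median. Over all probes the median was -0.0008 in the main model and -0.009 without Atm-/- veh 3. It was -0.010 on those 12 arrays and -0.047 with that scaling.

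Sucla2 encodes the ATP-forming beta subunit of succinyl-CoA ligase, the step of the cycle that makes a nucleoside triphosphate directly. Its log2 signal was 13.91, 14.00, 13.86 and 14.00 on the 4 Atm-/- veh arrays and 14.34, 14.44, 14.37 and 14.34 on the 4 Atm-/- NR arrays. Every NR array lay above every veh array, with a gap wider than the spread inside either group. The means were 13.94 ± 0.07 and 14.37 ± 0.05 (SD, n = 4 each), a log2 change of 0.43 (SE 0.09, 1.35-fold, adjusted p = 0.0142 in limma). In WT veh the arrays read 14.13, 14.25, 14.21 and 13.84, and in WT NR 14.19, 14.39, 14.37 and 14.38, so the WT groups overlapped. The lowest WT veh value belongs to WT veh 4, and the lowest WT NR value to WT NR 1, which had no Y-linked signal.

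Fh1 encodes fumarase, which adds water to fumarate to give malate. Its log2 signal was 14.29, 14.59, 14.41 and 14.29 in Atm-/- veh and 14.77, 14.88, 15.01 and 14.96 in Atm-/- NR. The groups did not overlap. The means were 14.40 ± 0.14 and 14.91 ± 0.11 (SD, n = 4 each), and the log2 change of 0.51 (SE 0.10, 1.42-fold, adjusted p = 0.0119 in limma) was the largest of the 9. The WT veh arrays read 14.66, 14.61, 14.54 and 14.32 and the WT NR arrays 14.67, 14.80, 14.76 and 14.94. The highest WT veh array was just under the lowest WT NR array, so these groups did not overlap either. Of all probes, 4.09% had WT groups that did not overlap.

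Mdh2 encodes the mitochondrial malate dehydrogenase, which closes the cycle by making oxaloacetate and NADH. Its log2 signal was 17.47, 17.71, 17.39 and 17.47 in Atm-/- veh and 17.76, 17.91, 17.84 and 17.94 in Atm-/- NR. Atm-/- veh 2 stood well above the other veh arrays, close to the lowest NR array, and the groups still did not overlap. The means were 17.51 ± 0.14 and 17.87 ± 0.08 (SD, n = 4 each), a log2 change of 0.36 (SE 0.09, 1.28-fold, adjusted p = 0.0291 in limma). The WT veh arrays read 17.72, 17.71, 17.56 and 17.60 and the WT NR arrays 17.58, 17.76, 17.79 and 17.95, and these groups overlapped.

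The calls differed in firmness. Sucla2 and Fh1 passed with each of the 16 arrays left out in turn (highest adjusted p = 0.0488 for Sucla2 and 0.0449 for Fh1). Mdh2 kept a change of 0.31 to 0.42 but missed the threshold without Atm-/- veh 1, 3 or 4 or without Atm-/- NR 2, 3 or 4 (adjusted p = 0.0661 to 0.0839). Mdh2 also missed it in limma with only the Atm-/- groups fitted (adjusted p = 0.0532). The same held with their slide normalized and fitted alone (adjusted p = 0.0526), while Sucla2 and Fh1 passed in both fits. On the 12 arrays with Y-linked signal, which leave 3 arrays in each Atm-/- group, none of the 3 genes passed, at changes of 0.42 for Sucla2 (adjusted p = 0.0776), 0.50 for Fh1 (adjusted p = 0.0707) and 0.28 for Mdh2 (adjusted p = 0.115), and the share of all probes called dropped to 0.948%. Without Atm-/- veh 3, the array with red blood cell genes, the changes were 0.40, 0.52 and 0.31. Every Atm-/- NR array had fewer probes well above background (34945 to 37817) than every Atm-/- veh array (39134 to 41905), and the part of this difference in the result was not tested. Of 36 measured markers of 9 cell types or tissues, 0 passed in this comparison and 7, or 19.4%, had Atm-/- groups that did not overlap, close to the 20.2% of all probes. Among them were Gfap (-0.75) and Aqp4 (0.52) of astrocytes, C1qa (-0.67) of microglia, Flt1 (0.31) of endothelium, Cbln3 (-0.31) of granule cells and Folr1 (0.93) of choroid plexus. Other markers of the same lists went the other way, all with overlapping groups. They were Neurod1 (0.31) of granule cells, Cx3cr1 (0.24) and Aif1 (0.18) of microglia, and Cldn5 (-0.23) and Pecam1 (-0.51) of endothelium. Kcnj13 (-0.58) and Otx2 (-0.51) of choroid plexus did so too. Tmem119 of microglia (-0.34) had the sign of C1qa, and Kdr of endothelium was at -0.001. The part of these cell types in the result was not tested.

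**Figure D1:**
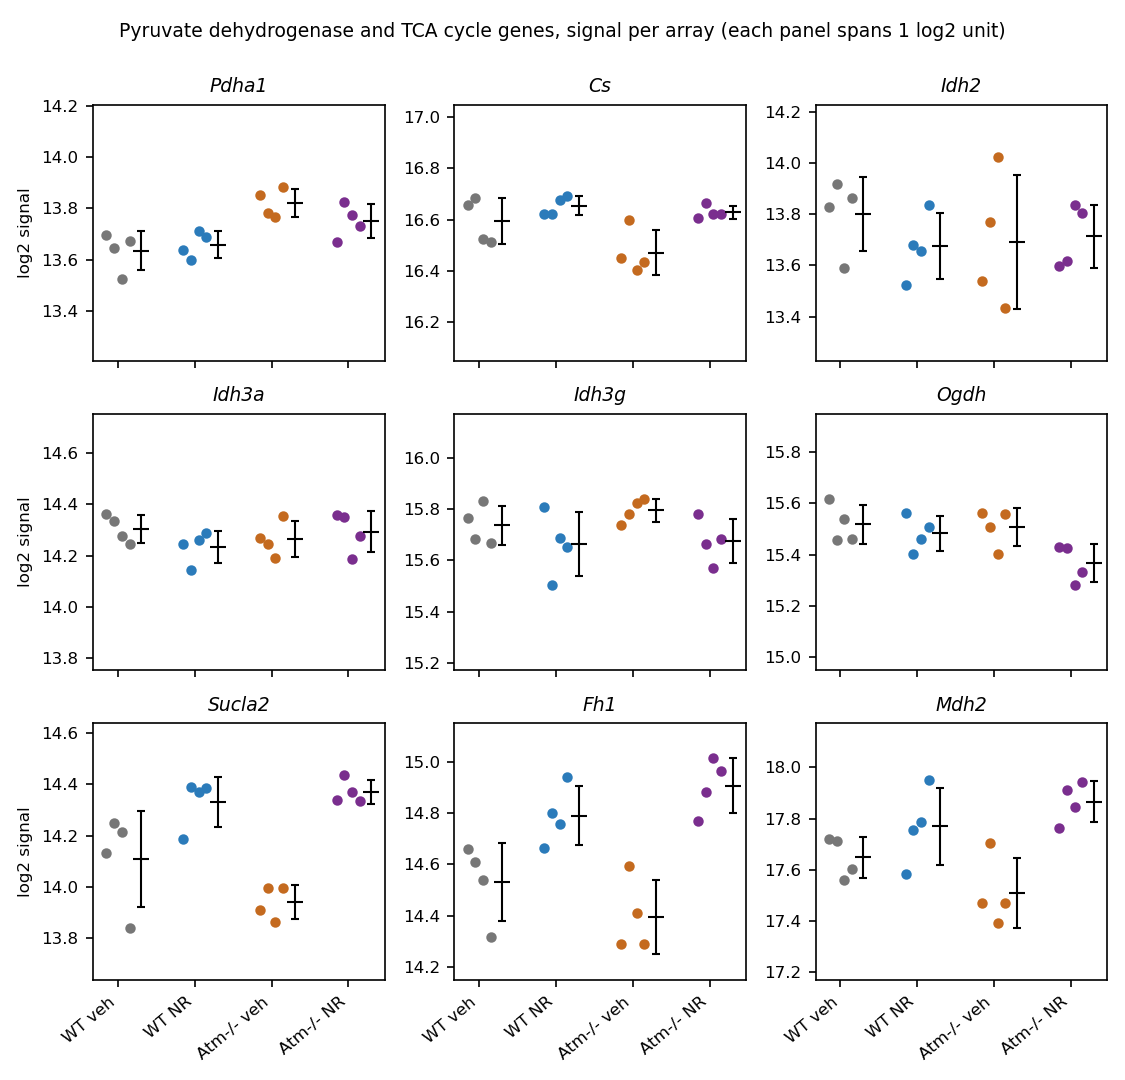
Log2 signal of the 9 genes on each of the 16 arrays, 1 panel per gene, each panel 1 log2 unit high. Points are arrays in replicate order, bars are the mean ± SD of the 4 arrays of a group, and the vertical axis does not start at 0. Sucla2, Fh1 and Mdh2 separate Atm-/- NR from Atm-/- veh, while the 4 groups overlap for Idh3a and Idh2.

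The stretches of genome just before the annotated starts of Sucla2, Fh1 and Mdh2 are shown because these 3 genes rose together. Each line gives 250 bases that end at the base before the start, read 5′ to 3′ on the strand of the gene, from RefSeq on build GRCm38.p6. Capitals mark every match, on either strand, to 1 of 9 motifs. They are the NRF1 motif, its shorter form spelled TGCGCA, the ETS motif spelled CCGGAAG, the estrogen-related receptor motif spelled AAGGTCA, the NF-Y motif spelled CCAAT, the SP motif spelled GGGCGG, the E-box spelled CACGTG, the CREB motif spelled TGACGT and the TATA motif spelled TATAAA. Sucla2 lies at chr14:73552536-73552785 on the + strand, Fh1 at chr1:175625636-175625885 on the - strand and Mdh2 at chr5:135778399-135778648 on the + strand.
Sucla2: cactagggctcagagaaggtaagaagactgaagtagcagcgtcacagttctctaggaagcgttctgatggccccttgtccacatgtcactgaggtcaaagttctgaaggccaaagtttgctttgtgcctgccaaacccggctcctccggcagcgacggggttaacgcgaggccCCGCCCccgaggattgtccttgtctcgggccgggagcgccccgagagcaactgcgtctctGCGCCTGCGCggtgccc
Fh1: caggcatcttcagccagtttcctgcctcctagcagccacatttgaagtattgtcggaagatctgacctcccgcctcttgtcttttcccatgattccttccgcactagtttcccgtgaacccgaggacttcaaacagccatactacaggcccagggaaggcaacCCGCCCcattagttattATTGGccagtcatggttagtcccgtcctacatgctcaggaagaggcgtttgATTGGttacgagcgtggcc
Mdh2: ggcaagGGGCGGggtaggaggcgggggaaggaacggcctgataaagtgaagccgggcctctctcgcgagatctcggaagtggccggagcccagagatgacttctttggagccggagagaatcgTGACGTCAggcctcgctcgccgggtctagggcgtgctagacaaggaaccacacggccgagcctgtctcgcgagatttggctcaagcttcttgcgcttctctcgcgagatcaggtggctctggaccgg

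The SP motif was the only one of the 9 found before all 3 genes, once in each, and 32.7% of 32851 promoter stretches of this length hold it. Sucla2 alone of the 3 had the NRF1 motif, which is in 3.74% of the stretches. Fh1 had the NF-Y motif at 2 places, and 33.8% hold it. Mdh2 had the CREB motif on both strands, as 2 matches that overlap, and 6.47% of the stretches hold it. The other motifs are held by 6.43% (short NRF1 form), 6.91% (ETS), 4.08% (estrogen-related receptor), 6.02% (E-box) and 12.4% (TATA) of the stretches, and these letters were not in the 3 windows. The stretches were 61.2%, 52.8% and 63.2% G or C for Sucla2, Fh1 and Mdh2. Promoter sequences matched 8 of the 9 genes, and among genes that did not pass the test the SP motif also stood before Cs and Idh2, at 2 places each, and before some of the annotated starts of Ogdh. The NF-Y motif stood before Cs at 2 places, before Idh2 at 1 and before some starts of Ogdh. The CREB motif stood before Idh3g at 2 places and before some starts of Ogdh.

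At the entry to the cycle, Pdha1 encodes the alpha subunit of the first component of pyruvate dehydrogenase, the part that kinases phosphorylate to switch the complex off. It read 13.82 ± 0.06 in Atm-/- veh and 13.75 ± 0.07 in Atm-/- NR, a log2 difference of -0.07 (95% interval -0.21 to 0.07, adjusted p = 0.503 in limma). Cs encodes citrate synthase, which joins acetyl-CoA to oxaloacetate and is often used as a measure of mitochondrial content. Its Atm-/- veh arrays read 16.45, 16.60, 16.41 and 16.43 and its Atm-/- NR arrays 16.61, 16.66, 16.62 and 16.62. These groups just missed overlapping, and the change of 0.16 (95% interval 0.02 to 0.30) did not pass (adjusted p = 0.139 in limma). With arrays scaled to their 75th percentile in place of quantile normalization, Cs passed at a change of 0.25 (adjusted p = 0.0475). Its dimmer probe differed by 0.08 (adjusted p = 0.657). Counted by brightest probes, the Atm-/- groups did not overlap for 4 of the 9 genes (Cs, Sucla2, Fh1 and Mdh2), against 20.2% of all probes.

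The isocitrate dehydrogenases catalyse the first oxidative decarboxylation. Idh2, the NADP+-dependent mitochondrial enzyme, read 13.69 ± 0.26 in Atm-/- veh and 13.71 ± 0.12 in Atm-/- NR, a difference of 0.02 (95% interval -0.24 to 0.29). Its widest spread lay inside Atm-/- veh, from 13.43 to 14.02. Idh3a, the catalytic subunit of the NAD+-dependent enzyme, read 14.27 ± 0.07 and 14.29 ± 0.08, a difference of 0.03 (95% interval -0.11 to 0.17). Idh3a is the only one of the 9 on the chromosome of Atm, 1.05 Mb from it. For both genes the p missed the threshold (adjusted p = 0.931 and 0.823 in limma), and the intervals exclude changes of the size measured for Fh1.

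Idh3g encodes a regulatory subunit of the NAD+-dependent isocitrate dehydrogenase, and its probes differed in what they showed. The brighter probe read 15.80 ± 0.04 in Atm-/- veh and 15.67 ± 0.09 in Atm-/- NR, with overlapping arrays and a difference of -0.12 (adjusted p = 0.32 in limma). On the dimmer probe the Atm-/- veh arrays read 14.92, 14.89, 14.86 and 15.02 and the Atm-/- NR arrays 14.64, 14.60, 14.50 and 14.57. Those groups lay well apart, and the dimmer probe fell by 0.35 (SE 0.08, adjusted p = 0.0243 in limma), the opposite direction to Sucla2, Fh1 and Mdh2. That call was lost without Atm-/- veh 1 or 4 or without Atm-/- NR 2, 3 or 4. Ogdh, the first subunit of 2-oxoglutarate dehydrogenase, had negative values on both probes, -0.14 on the brighter (adjusted p = 0.199) and -0.30 on the dimmer (adjusted p = 0.0923), where the groups did not overlap. Neither Ogdh probe passed. Cs had 2 positive values and Idh2 had values of opposite sign on its probes (0.02 and -0.13).

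**Figure D2:**
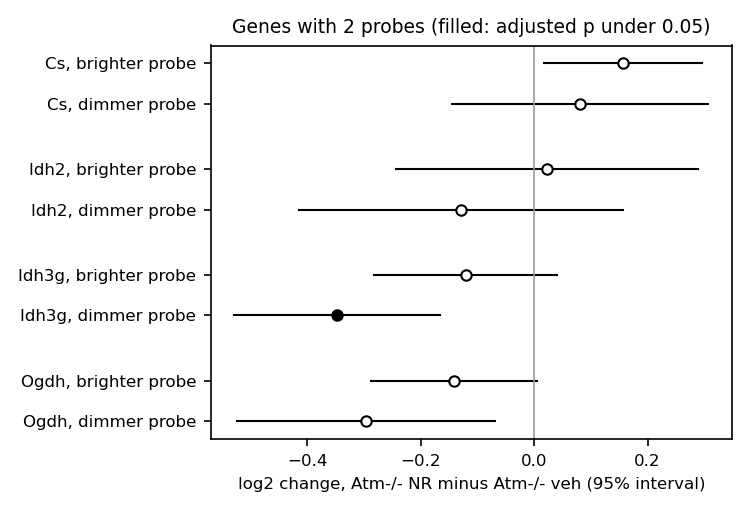
Log2 change from Atm-/- veh to Atm-/- NR on each probe of the 4 genes that have 2 probes. Points are changes, lines are 95% intervals, and the filled point passed at an adjusted p under 0.05. Only the dimmer Idh3g probe, at -0.35, is filled, and both Idh3g and both Ogdh probes lie to the left of 0.

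Without NR, loss of Atm moved none of the 9 genes past the threshold, and 0.0537% of all probes passed in this comparison. In limma 1 of the 9 had an unadjusted p under 0.05, as did 14.6% of all probes. It was Pdha1, at 13.85, 13.78, 13.77 and 13.88 in Atm-/- veh against 13.69, 13.65, 13.53 and 13.67 in WT veh. All 4 Atm-/- veh arrays lay above all 4 WT veh arrays, and the difference was 0.19 (95% interval 0.05 to 0.32, adjusted p = 0.239). Of all probes, 7.6% had groups that did not overlap in this comparison. Sucla2 (-0.17, 95% interval -0.36 to 0.02), Mdh2 (-0.14, -0.33 to 0.05), Fh1 (-0.14, -0.35 to 0.08) and Cs (-0.12, -0.26 to 0.02) had negative values with overlapping groups. The median over the 9 genes was -0.11, with 2 positive and 7 negative values, against -0.03 over all genes, and it was -0.04 when the probes of a gene were averaged. Without WT veh 4, the array with markers of other tissue, the differences were -0.26 for Sucla2 (adjusted p = 0.164), -0.21 for Fh1 (adjusted p = 0.309), -0.15 for Mdh2 (adjusted p = 0.457) and 0.20 for Pdha1 (adjusted p = 0.208). The Atm-/- veh arrays serve in this comparison and in that of NR in Atm-/- mice, so its values and those above are not independent of each other.

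In WT mice, NR moved none of the 9 genes past the threshold, and 0% of all probes passed (2838 of 37253 at an unadjusted p under 0.05 in limma). Fh1 (0.26, 95% interval 0.05 to 0.47, adjusted p = 0.586) and Sucla2 (0.22, 95% interval 0.03 to 0.41, adjusted p = 0.6) had the largest values, followed by Mdh2 at 0.12 (95% interval -0.07 to 0.31). These are the 3 genes that rose in Atm-/- mice. The WT and Atm-/- comparisons of NR share no arrays, but both set row 2 of a slide against row 1. All 16 arrays were also normalized and fitted together, so the comparisons are not fully independent. Without WT veh 4 the values were 0.19 for Fh1, 0.13 for Sucla2 and 0.10 for Mdh2. On the 12 arrays with Y-linked signal, which leave out WT NR 1 and 4, they were 0.25, 0.27 and 0.12. The Mdh2 value was 0.18 without WT NR 1 and 0.06 without WT NR 4. Idh2 had the largest negative value, at -0.12 (95% interval -0.39 to 0.14).

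The difference between the NR effects of the genotypes was tested in the same model, and 0% of all probes passed, none of the 9 genes among them (1962 of 37253 at an unadjusted p under 0.05 in limma). The effect was larger in Atm-/- mice by 0.25 for Fh1 (95% interval -0.05 to 0.55), by 0.23 for Mdh2 (-0.04 to 0.51) and by 0.21 for Sucla2 (-0.06 to 0.47), each at an adjusted p of 0.839. The rise of these genes is not shown to differ between the genotypes. Between the groups given NR, Atm-/- NR and WT NR, none of the 9 passed either, with differences from -0.12 for Ogdh to 0.12 for Fh1 and 0.0537% of all probes called. Sucla2 read 14.37 ± 0.05 in Atm-/- NR and 14.33 ± 0.10 in WT NR (95% interval of the difference -0.15 to 0.23).

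**Figure D3:**
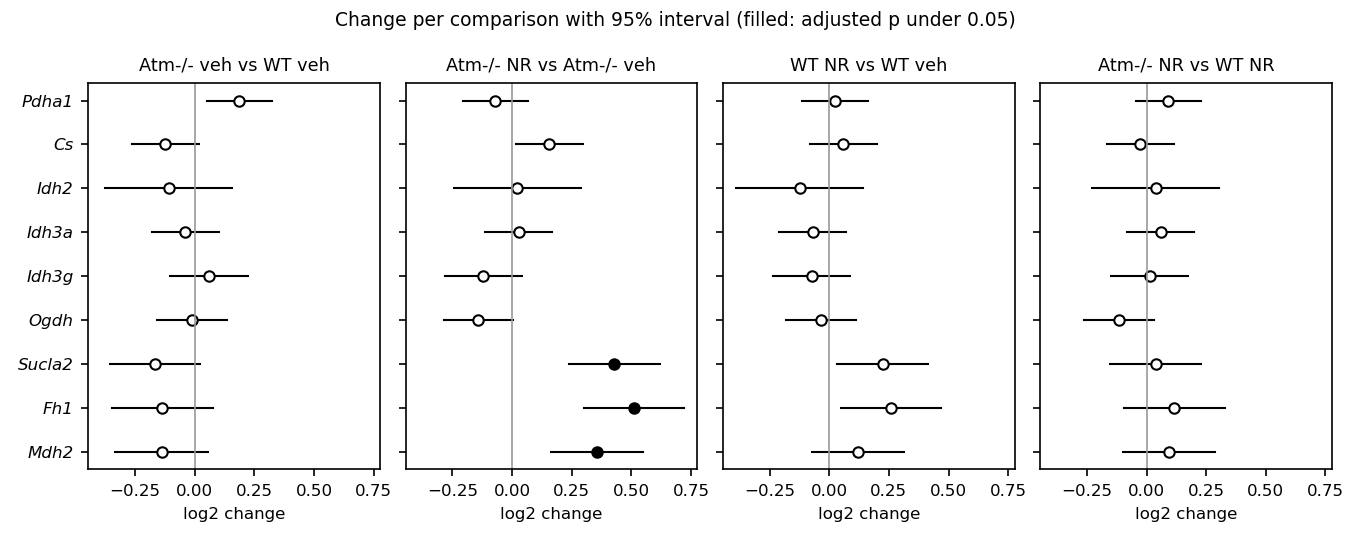
Log2 changes of the 9 genes in 4 comparisons, each named as first minus second group. Points are changes on the brightest probe, lines are 95% intervals and filled points passed at an adjusted p under 0.05. The filled points are Sucla2 (0.43), Fh1 (0.51) and Mdh2 (0.36) in Atm-/- NR against Atm-/- veh, and no other panel has one.

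Over the 4 groups together, limma's F test called Sucla2 (adjusted p = 0.032) and Fh1 (adjusted p = 0.0271), against 4.84% of all probes, and Mdh2 missed it (adjusted p = 0.0877). The order of the group means was the same for Sucla2, Fh1 and Mdh2: Atm-/- veh was lowest, then WT veh, then WT NR, and Atm-/- NR was highest. Neighbours in that order did not differ beyond the spread in any of the 3 genes by an adjusted p under 0.05. For Pdha1 the order was WT veh (13.64 ± 0.08), WT NR (13.66 ± 0.05), Atm-/- NR (13.75 ± 0.07) and Atm-/- veh (13.82 ± 0.06). For Idh3g the lowest mean was that of WT NR (15.66 ± 0.13) and the highest that of Atm-/- veh (15.80 ± 0.04), and for Ogdh the lowest was Atm-/- NR (15.37 ± 0.07) and the highest WT veh (15.52 ± 0.08). The F test called 0 of the 9 without any 1 of Atm-/- veh 1, 3 or 4 or Atm-/- NR 2, 3 or 4, and 1 of the 9 without WT NR 2, 3 or 4.

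**Figure D4:**
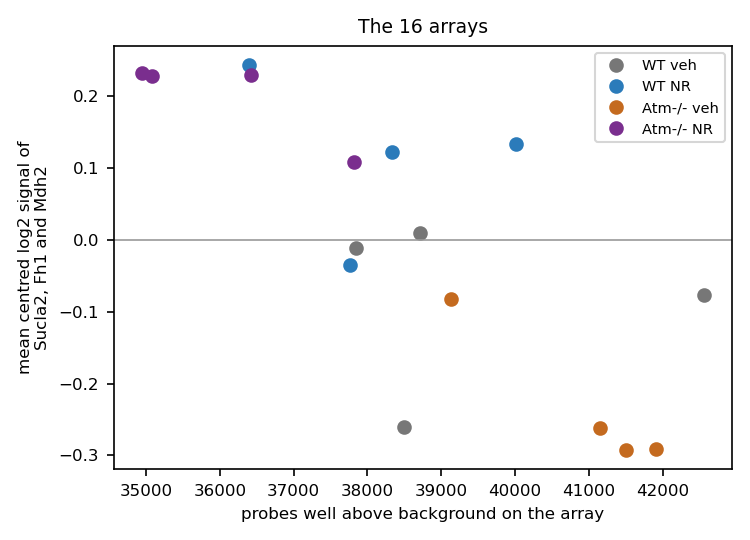
Mean log2 signal of Sucla2, Fh1 and Mdh2, each centred on its mean over 16 arrays, against the number of probes well above background, 1 point per array. The Atm-/- NR arrays sit at the left, between 34945 and 37817 probes, and the Atm-/- veh arrays at the right, between 39134 and 41905, and these groups differ in both measures.

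Around the 9 genes, other transcripts of the same complexes were read from lists of the pathway. Of 13 other subunits of pyruvate dehydrogenase and the cycle enzymes, 3 rose in Atm-/- NR over Atm-/- veh and 0 fell. The shares over all genes, against which each list count below is to be read, were 6.67% higher and 4.8% lower. Their median was 0.08, against 0.04 over all genes. Pdhb, the beta subunit and partner of Pdha1, read 15.52, 15.68, 15.53 and 15.58 in Atm-/- veh and 15.92, 16.10, 16.09 and 16.11 in Atm-/- NR. Its change of 0.48 (SE 0.07, 1.39-fold, adjusted p = 0.00578 in limma) stood beside that of Pdha1, whose value was -0.07. The difference between these genes was not tested. Pdhx, which tethers the third component to the core, rose by 0.32 (adjusted p = 0.0142), and Dlst, the second subunit of 2-oxoglutarate dehydrogenase, by 0.24 (adjusted p = 0.0402), while Ogdh of the same complex had a value of -0.14. The partners of the 9 genes named next were picked for their place in the cycle after their values were seen. The subunits of succinate dehydrogenase did not pass, with values from -0.02 for Sdhc to 0.22 for Sdhb (adjusted p = 0.0884), and dimmer probes of Sdha (-0.22) and Sdhb (-0.05) had negative values. Suclg1, the alpha subunit that pairs with Sucla2, had a value of -0.14 (adjusted p = 0.31), and Idh3b, the remaining subunit of the NAD+-dependent isocitrate dehydrogenase, -0.19 (adjusted p = 0.191).

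Among 7 kinases and phosphatases of pyruvate dehydrogenase, 0 rose and 2 fell after NR in Atm-/- mice (median -0.16). Pdk2, a kinase that switches the complex off, read 14.09, 13.97, 13.99 and 13.93 in Atm-/- veh and 13.66, 13.59, 13.41 and 13.49 in Atm-/- NR, with no overlap, and fell by 0.46 (SE 0.10, adjusted p = 0.0193 in limma). Pdpr, the regulatory subunit of a phosphatase that switches it on, fell by 0.31 (adjusted p = 0.0372), with overlapping groups. Pdk1, another of the kinases, had a value of 0.42 that did not pass (adjusted p = 0.128), with -0.37 to 0.13 on its dimmer probes. Lias, which makes the lipoyl group carried by Dlat and Dlst, was the 1 of 4 lipoylation genes to pass, at 0.30 (adjusted p = 0.0383), and Lipt2 had the only negative value, at -0.04 (0.0033 without Atm-/- veh 1).

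Outside the cycle, Mdh1, the cytosolic malate dehydrogenase, rose by 0.32 (adjusted p = 0.0399), the 1 call among 6 measured counterparts of the cycle enzymes. Its dimmer probe had a value of 0.10. The largest negative value there was that of Aco1, the cytosolic aconitase, at -0.20 (adjusted p = 0.0828), while its dimmer probe rose by 0.90 (adjusted p = 0.0376). Of 11 measured genes of pyruvate entry, lactate and anaplerosis, Me1, the cytosolic malic enzyme, rose by 0.30 (adjusted p = 0.032), with -0.07 on its dimmer probe, and Pcx, which makes oxaloacetate from pyruvate, had the most negative value, at -0.25 (adjusted p = 0.0689). Of 9 genes of the NADH shuttles and carriers, Slc25a11, the 2-oxoglutarate and malate carrier, rose by 0.31 (adjusted p = 0.0306) and Got2, the mitochondrial aspartate aminotransferase, fell by 0.23 (adjusted p = 0.0432). The dimmer Slc25a11 probe went the other way, at -0.31 (adjusted p = 0.0765), and the mean of its probes was 0.00, so its direction depends on the probe. A dimmer probe of Slc25a12, a carrier of aspartate and glutamate, fell by 0.34 (adjusted p = 0.0144), while its brightest probe had a value of -0.20 (adjusted p = 0.126). Of these 10 calls, only that of Pdhb held with each of the 16 arrays left out in turn. Pdhx was lost without Atm-/- veh 1, Pdk2 without Atm-/- veh 1 or Atm-/- NR 3, and the other 7 were lost without any 1 of 6 to 9 arrays. In the other comparisons, and in the difference between the NR effects, none of these pathway genes passed. In WT mice the NR values were 0.29 for Pdhb (adjusted p = 0.476), 0.29 for Mdh1 (adjusted p = 0.501) and -0.27 for Pdk2 (adjusted p = 0.591).

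**Figure D5:**
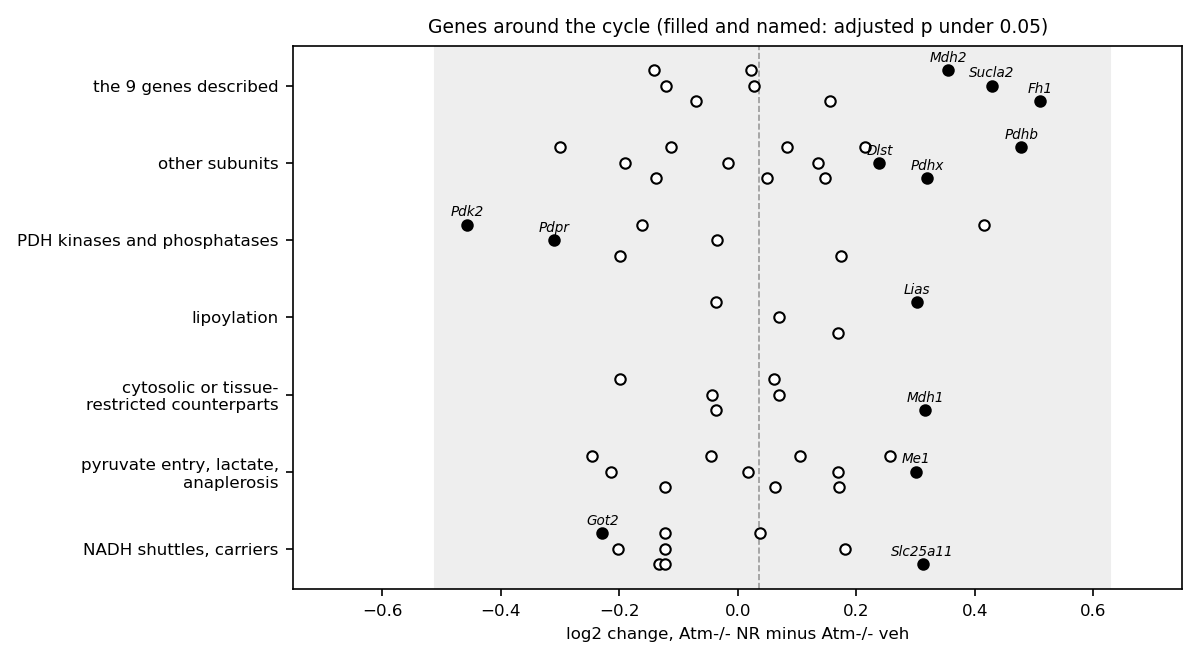
Log2 change from Atm-/- veh to Atm-/- NR for the 9 genes and for 6 lists of genes around the cycle, 1 point per gene on its brightest probe. Filled, named points passed at an adjusted p under 0.05. The grey band spans the 0.05 to 0.95 quantiles of all 16737 genes (-0.51 to 0.63) and the dashed line is their median (0.04). All filled points lie inside the band.

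Between Atm-/- veh and WT veh, the most negative value in these lists was that of Dlat, the acetyl-transferring core of pyruvate dehydrogenase, at -0.38 (SE 0.09, adjusted p = 0.172 in limma), with all 4 Atm-/- veh arrays under all 4 WT veh arrays. Of all probes, 7.6% had groups that did not overlap in this comparison. The dimmer Dlat probe had a value of 0.06. Among the other subunits the highest value was 0.22 for Sdhc (adjusted p = 0.636), which rested on WT veh 1 and was -0.06 without it. Extremes were 0.31 for Pdp2 (adjusted p = 0.28) and -0.33 for Pdk1 (adjusted p = 0.381) among the kinases and phosphatases, and 0.05 for Lipt2 and -0.32 for Lipt1 (adjusted p = 0.295) among the lipoylation genes. The Pdk1 value was -0.14 without WT veh 4, and the Lipt2 value -0.09. The extremes were 0.14 for Ogdhl and -0.16 for Idh1 among the counterparts, 0.16 for Pck2 and -0.19 for Me3 among the genes of pyruvate entry, and 0.18 for Got2 and -0.20 for Slc25a13 among the shuttles. Without WT veh 4, Me3 was at -0.0037, Slc25a13 at -0.10 and Ogdhl at 0.07. Without other single arrays, Idh1 ran up to -0.01 (Atm-/- veh 3), Ogdhl from 0.05 (Atm-/- veh 2) to 0.27 (WT veh 1), Slc25a13 from -0.42 (WT veh 3) to -0.08 (WT veh 1) and Me3 down to -0.30 (WT veh 3).

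Over the 16 arrays, the mean of the 9 genes, each centred on its own mean, ran from -0.11 to -0.01 in Atm-/- veh and from 0.03 to 0.08 in Atm-/- NR. Of 16728 other genes, those whose signal followed this mean most closely were 6330418K02Rik (Pearson r = 0.95), Tomm20, an import receptor of the outer mitochondrial membrane (r = 0.94), Fut10 (r = 0.94), Acadl, a mitochondrial acyl-CoA dehydrogenase (r = 0.94) and Gfm1, a mitochondrial elongation factor (r = 0.94). These values describe the 16 arrays, which share slides, rows and groups.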

How the data were processed

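RNA of cerebellar cortex from 16 mice (4 groups of 4) was hybridised to 16 Agilent arrays of 1 colour. The authors deposited, for each array, the intensity of 62976 spots from Agilent Feature Extraction 12.0.3.1, with local background subtracted and no normalization between arrays, and for the series a table of scores (z-scores). The labels gave each sample its group and replicate number.

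Probes were named through their accessions with RefSeq genes of GRCm38.p6 (32994 of 56605). These served for names, neighbouring genes and promoter sequences, with no coordinates taken from the arrays. The filter on dim signals kept a probe if, on each of the 4 arrays of some group, a share of 0.5 or more of the probe's spots stood well above background. Log2 signals were quantile normalized and averaged per probe. The model was fitted in limma 3.58.1 under R 4.3.3 (4 group means, 12 residual degrees of freedom, Benjamini-Hochberg threshold 0.05), and SE and 95% intervals come from that model. Log2 signals are on the scale of the array, and levels of different probes are not comparable. The number of arrays limits the precision. In a simulation of Atm-/- NR against Atm-/- veh on 37253 probes, 100 probes were changed by 0.5 on the log2 scale, 100 by 1 and the rest left unchanged. Of these, 27 of 100 and 66 of 100 were called, with 2 unchanged probes called. The Benjamini-Hochberg threshold depends on how many probes change. In the data 3366 probes passed, so these rates do not carry over to the measured comparison.

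The 9 genes, the pathway and marker lists and the tests were chosen with earlier results of these data known. Pathway genes were named where they passed in any comparison, and otherwise as the largest rise and fall of a list. A value that this rule names is not reported here. Alternatives were scaling to the 75th percentile, normexp with offset 50, the deposited scores, other filters on dim probes, each array left out, the replicate number as a block, only the groups compared, only arrays with Y-linked signal, the methods' t-test, the mean of all probes of a gene, and each NR effect within its slide.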

Additional observations from a re-analysis of the deposited data

Results flagged for a closer look

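Within each group of 4 arrays, the highest and lowest value of each of the 9 genes was compared with its nearest neighbour. Of 36 such groups, 1 held an array far from the other 3: Sucla2 on WT NR 1, at a log2 signal of 14.19 against 14.37 on the next array. By chance about 1 in 20 such groups would be marked. WT NR 1 is also 1 of the 4 arrays without Y-linked signal, and what sets its Sucla2 value apart was not tested.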

How the results depend on the processing

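Sucla2 and Fh1 rose in Atm-/- NR over Atm-/- veh in 25 of 26 alternatives, and Mdh2 in 17 of 26, with positive values in all of them. The count of called genes in that comparison (3) went to 0 on the 12 arrays with Y-linked signal, where the F test over the 4 groups (2) also gave 0, and to 6 with the methods' t-test at its unadjusted threshold, which called 1 gene in Atm-/- veh against WT veh and 1 in WT NR against WT veh. That test called 26.9%, 11.7% and 6.65% of all probes in the same comparisons. The t-test after Benjamini-Hochberg called 3, 0 and 0. In Atm-/- NR against Atm-/- veh the count was 4 with 75th percentile scaling. It was 2 with only the groups compared and 2 within the slide, where Mdh2 was lost. With single arrays left out, the count was 2 to 3 and that of the F test 0 to 2. Replicate numbers of the labels mark the column on the slide. Deviations from the group means were correlated between arrays of different groups. The 24 same-numbered pairs had a median correlation of -0.019 (-0.33 to 0.37). The 72 differently numbered pairs had a median of -0.021 (-0.33 to 0.45). Same-numbered arrays thus deviated together no more than others, and they were not treated as pairs. With the replicate block 3 genes were called in Atm-/- NR against Atm-/- veh and 0 in the other comparisons, and 3140 in place of 3366 probes in all. The block ended the calls of Dlst (adjusted p = 0.0563), Pdpr (0.0608), Mdh1 (0.0627) and Got2 (0.0636).

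Values near 0 changed sign: Ogdh in Atm-/- veh against WT veh was 0.0178 with normexp, 0.0233 on the 12 arrays and 0.0413 as a mean of probes (-0.0315 to 0.0241 with arrays left out). Idh2 in Atm-/- NR against Atm-/- veh was -0.0536 as a mean of probes (-0.0638 to 0.132 with arrays left out). In Atm-/- NR against WT NR, Cs was 0.0358 with 75th percentile scaling and 0.00457 as a mean of probes, and Idh2 was -0.0139 as a mean of probes (-0.0113 to 0.0930 with arrays left out). There Idh3g ran from -0.0397 to 0.0609 and Sucla2 from -0.00983 to 0.0578 with arrays left out. Pdha1 in WT NR against WT veh ran from -0.0127 to 0.0439 with arrays left out. The difference between the NR effects for Idh3g was 0.0129 with 75th percentile scaling and 0.0232 on the 12 arrays (-0.0989 to 0.00125 with arrays left out). In Atm-/- NR against Atm-/- veh, Aco1 was 0.349 as a mean of probes, by way of its dimmer probe, and Lipt2 ran from -0.0976 to 0.00327 with arrays left out. In Atm-/- veh against WT veh, Sdhc ran from -0.0637 to 0.328 and Lipt2 from -0.0898 to 0.120. The cause was not tested.

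Genotype comparisons could not be given a slide term, and 4 arrays a group limit what can be called.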
